A study of Mus musculus with 6 samples.

Results

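The 36 genes described here encode enzymes of cholesterol synthesis, the proteins that control those enzymes, carriers and an esterifying enzyme of cholesterol, and enzymes that build and desaturate fatty acids. They were chosen by gene symbol. For each symbol, the estimated counts of its isoforms were summed over exact matches to the annotation and over newly assembled isoforms that overlap its exons. All 36 were found among the 54787 gene symbols of the deposited table. A gene was tested when its isoforms summed to a mean of at least 0.5 FPKM (fragments scaled by transcript length and library size), which 20272 genes and 35 of the 36 reached. Nr1h3, at a mean of 0.414 FPKM, did not.

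The PS_high group held 3 samples from mice given polystyrene nanoparticles (PS NPs) at 50 mg per kg of body weight, and the control group held 3 samples from mice given water (0 mg per kg). Dosing was by daily gavage over 6 months. All mice were C57BL/6 males, 5 weeks old when the study began and 30 weeks old at sampling, and RNA came from the prefrontal cortex. Total RNA was depleted of ribosomal RNA and sequenced with a stranded kit. The labels do not say whether each sample is 1 mouse or a pool, so p-values measure the spread between these samples.

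Brain cells make their own cholesterol, because lipoproteins of the blood do not cross the blood-brain barrier. The mevalonate steps lead from acetyl-CoA to farnesyl diphosphate, and the sterol steps lead from squalene through lanosterol to cholesterol. When membrane sterol is low, SCAP escorts the SREBP proteins, products of Srebf1 and Srebf2, to the Golgi, where they are cleaved and released to switch on these genes. INSIG proteins hold SCAP back when sterol is plentiful, and the LXR receptors, products of Nr1h2 and Nr1h3, respond to oxysterols by switching on exporters such as ABCA1 and ABCG1. In adult cortex, astrocytes and myelinating oligodendrocytes carry much of this synthesis.

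The estimated counts per library came to 63466209, 53344395 and 61417412 in PS_high and to 65219552, 61842978 and 66004386 in control. The library PS_high 1 stood apart from the other 5: on the first principal component of the 2000 most variable genes, which held 28% of the variance, it sat at 41.1, and the others lay between -21 and 14.2. Across all tested genes, 5 differed between the groups at an adjusted p under 0.05 (edgeR's quasi-likelihood test with Benjamini-Hochberg adjustment), which is 0.0247% of 20272, and 554 (2.73%) had an unadjusted p under 0.05. Markers of astrocytes, oligodendrocytes, microglia, endothelium and both neuron classes were present in every library. Markers of neighbouring tissue varied widely: 5 choroid plexus genes summed to between 10.1 and 467 FPKM in PS_high and between 5.64 and 237 FPKM in control, with Folr1 at 0 in control 1. Striatal markers summed to between 8.03 and 32.4 FPKM in PS_high and between 13.7 and 32.5 FPKM in control, and red cell genes to between 89.3 and 256 FPKM in PS_high and between 152 and 383 FPKM in control. In a bulk tissue, fewer cells of a type and less RNA per cell cannot be told apart.

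None of the 35 sterol genes differed between PS_high and control at an adjusted p under 0.05 in edgeR, DESeq2 or limma, and in edgeR 0 had an unadjusted p under 0.05. The smallest unadjusted p was 0.143, for Abcg4, and the fold changes ran from a log2 of -0.36 for Scd2 to 0.23 for Abcg1. The point estimates leaned low: 25 lay below 0 and 10 above, with a median of -0.10, whereas 10437 of all tested genes lay below 0 and 9835 above, with a median of -0.01. Much of this lean came with PS_high 1: without that library the median of the 35 was 0.01 and 16 lay below 0. It stayed in the 7 mevalonate genes, of which 5 still lay below 0 and 2 above. The 95% interval of the log2 fold change stayed between -1 and 1 for 30 of the 35, so for those genes a difference of more than 2-fold either way lies outside the interval.

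**Figure D1:**
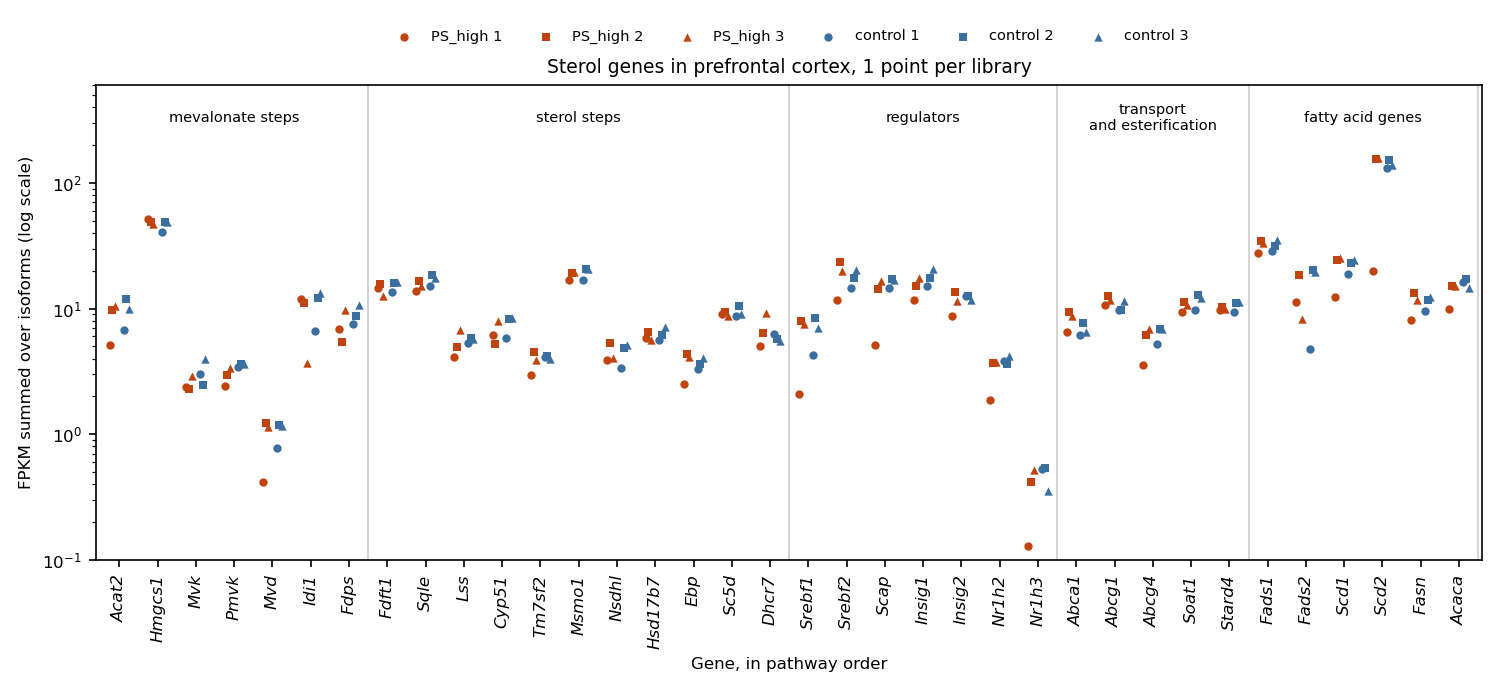
Summed FPKM of the 36 genes on a log scale, grouped by role, with 1 point for each of the 3 PS_high libraries (orange) and each of the 3 control libraries (blue). Scd2 stands at the top with PS_high 1 at 19.9 FPKM and the other 5 libraries between 131 and 157 FPKM.

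**Figure D2:**
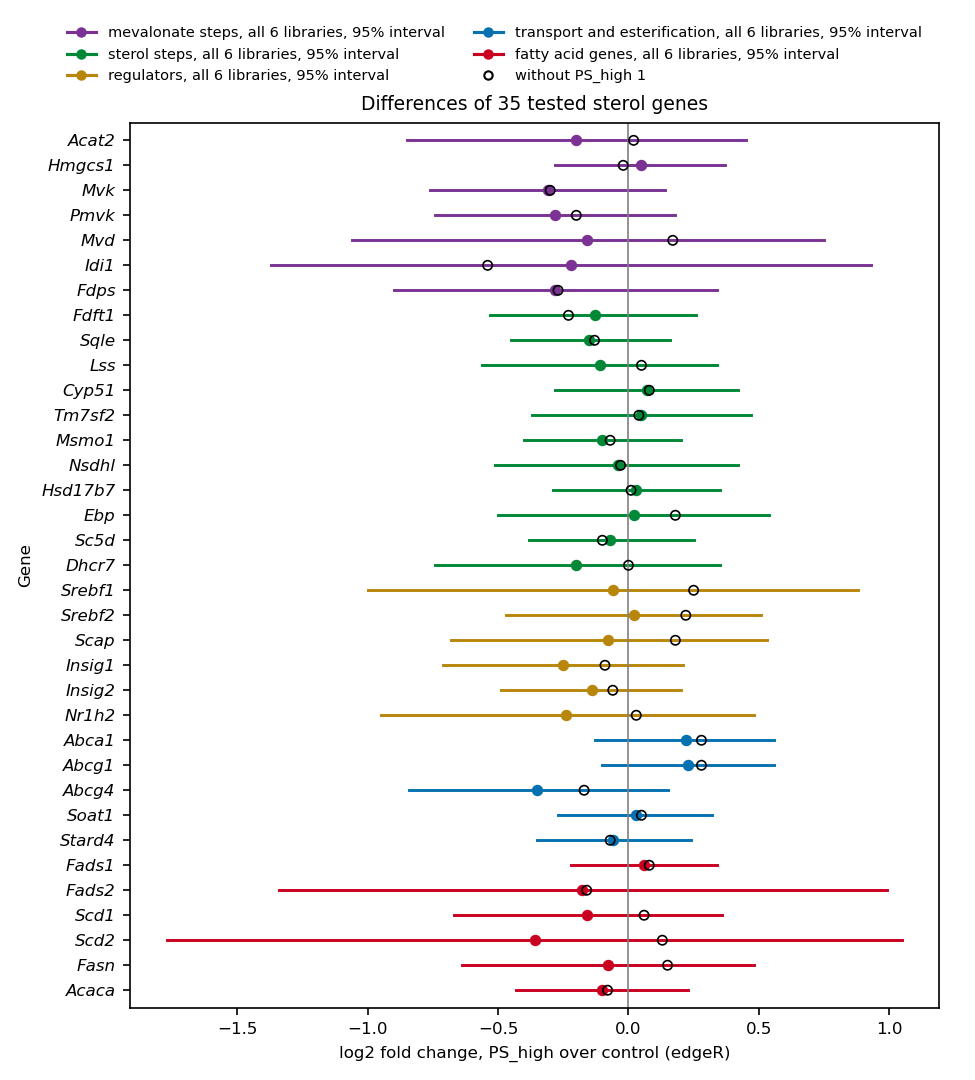
Log2 fold change of PS_high over control from edgeR for the 35 tested genes, coloured by role, with 95% intervals (filled points, 3 libraries a group), and the same without PS_high 1 (open circles, no interval drawn). Every interval spans 0, and the widest belong to Scd2, Fads2 and Idi1.

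Per kilobase of transcript, the 36 genes spanned a wide range. Scd2, the main stearoyl-CoA desaturase of the brain, averaged 111 ± 78.6 FPKM in PS_high and 141 ± 10.6 FPKM in control (SD, n = 3 each). Hmgcs1 was next in order and led the synthesis genes. Among the tested members Mvd was lowest, with a mean of 0.984 FPKM over the 6 libraries. Most sterol-step enzymes lay between these: their means over the 6 libraries ran from 3.65 FPKM to 19 FPKM.

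Promoters were read for the genes that RefSeq's table holds, from 250 bases before to 50 bases after the start (build GRCm38.p6). This table matched 27 of the 36 genes, with 36 promoters. The letters TCACNCCAC, a core of the sterol regulatory element, occurred on either strand in 1 of the 36 promoters (2.78%), that of Hmgcs1, against 1.24% of 32851 promoters of all genes. The CCAAT box, bound by NF-Y, occurred in 58.3% of the members' promoters and in 37.4% of all. The GC box GGGCGG occurred in 72.2% of the members' promoters and in 35.7% of all, and the E-box CACGTG in 19.4% and 7.15%. A match is a description of letters and not a binding site. Only these exact letters were searched, with N as any base, so a variant of an element would be missed. A promoter without a match is not shown to lack the element. The promoters of Hmgcs1, the enzyme that begins the mevalonate steps proper, of Srebf2, the regulator, and of Insig1, its feedback inhibitor, are shown because their proteins form the loop described above. They lie at chr13:119690101-119690400, chr15:82147019-82147318 and chr5:28071162-28071461, all on the plus strand. Capitals mark TCACNCCAC, which begins 137 bases before the start of Hmgcs1, and CCAAT, which reads ATTGG where it lies on the opposite strand.
Hmgcs1 promoter: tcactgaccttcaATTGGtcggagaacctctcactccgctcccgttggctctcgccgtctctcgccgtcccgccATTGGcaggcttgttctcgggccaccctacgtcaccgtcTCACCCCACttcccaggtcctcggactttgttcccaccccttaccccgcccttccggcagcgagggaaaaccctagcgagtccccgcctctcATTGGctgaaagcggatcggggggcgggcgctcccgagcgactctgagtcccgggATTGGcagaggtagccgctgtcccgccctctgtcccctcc
Srebf2 promoter: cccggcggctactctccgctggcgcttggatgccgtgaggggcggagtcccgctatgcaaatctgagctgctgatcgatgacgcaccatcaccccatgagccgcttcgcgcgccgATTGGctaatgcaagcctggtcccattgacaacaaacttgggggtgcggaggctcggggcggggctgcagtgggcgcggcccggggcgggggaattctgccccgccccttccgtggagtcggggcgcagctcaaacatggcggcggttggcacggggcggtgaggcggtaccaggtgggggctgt
Insig1 promoter: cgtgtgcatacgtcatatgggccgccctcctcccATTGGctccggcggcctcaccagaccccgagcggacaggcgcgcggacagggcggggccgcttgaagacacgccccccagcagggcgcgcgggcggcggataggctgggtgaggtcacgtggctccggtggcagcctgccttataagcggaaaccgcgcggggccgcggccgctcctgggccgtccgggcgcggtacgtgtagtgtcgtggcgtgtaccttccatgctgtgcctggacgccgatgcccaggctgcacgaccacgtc
Hmgcs1 held 4 CCAAT boxes in this window, against 1 each for Srebf2 and Insig1.

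The 7 mevalonate genes had a median log2 difference of -0.22, with 1 above 0 and 6 below, and edgeR unadjusted p-values from 0.145 to 0.749. With PS_high 1 left out, 5 lay below 0 and 2 above. Hmgcs1, which condenses acetyl-CoA and acetoacetyl-CoA into HMG-CoA, had 287, 254 and 243 CPM (counts scaled to library size with TMM factors) in the PS_high libraries 1 to 3, against 231, 272 and 257 CPM in the control libraries 1 to 3. The groups overlapped, and the log2 fold change was 0.05 ± 0.14 (SE; 95% interval -0.28 to 0.37; edgeR unadjusted p = 0.749). Hmgcs1 is thus among the more tightly measured genes of the set.

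Mvk and Pmvk encode the 2 kinases that phosphorylate mevalonate in sequence. Mvk had 6.47, 5.96 and 7.15 CPM in PS_high, against 8.02, 7.58 and 8.75 CPM in control. Every PS_high library lay below every control library, with a log2 fold change of -0.31 ± 0.19 (SE; edgeR unadjusted p = 0.145). Pmvk had 4.65, 5.23 and 5.81 CPM in PS_high, against 6.45, 6.4 and 6.27 CPM in control. Again the groups did not overlap, with a log2 fold change of -0.28 ± 0.20 (SE; edgeR unadjusted p = 0.189). Of all tested genes, 760 (3.75%) had every PS_high library below every control library and 678 (3.34%) had every PS_high library above. Among the 35, 3 were of the first kind (8.57%), Mvk, Pmvk and Insig2, and 0 of the second. Without PS_high 1 the log2 fold changes were -0.30 for Mvk and -0.20 for Pmvk. Leaving out a library cannot break such an order except through rescaling, so its persistence there adds no support. In FPKM, which divides each isoform by its length, Pmvk kept it as well, with 2.40, 2.97 and 3.35 FPKM in PS_high against 3.42, 3.65 and 3.63 FPKM in control. Mvk did not: it had 2.37, 2.27 and 2.89 FPKM in PS_high and 3.00, 2.46 and 3.94 FPKM in control.

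Mvd, which decarboxylates mevalonate diphosphate, had 1.26, 3.32 and 3.06 CPM in PS_high, against 2.26, 3.19 and 3.06 CPM in control. Its lowest value was in PS_high 1 and its next lowest in control 1, and the log2 fold change was -0.16 ± 0.39 (SE; edgeR unadjusted p = 0.698). An isoform annotated as subject to nonsense-mediated decay took all of its counts in the 3 PS_high libraries and in control 1, and 75.6% and 78% in control 2 and 3. The protein-coding isoform (ENSMUST00000006692) had 0 counts in all 3 PS_high libraries, against 0, 39 and 37 counts in control. The remaining 3 genes, Acat2, Idi1 and Fdps, had groups that overlapped. Acat2, which makes acetoacetyl-CoA, includes an assembled isoform that extends across its neighbour Acat3, so its reads are uncertain. Idi1, the isomerase that makes dimethylallyl diphosphate, is given here because of its spread, a choice made after its values were seen: it had 57.3, 51.6 and 14.2 CPM in PS_high, against 31.4, 52.7 and 59.3 CPM in control.

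The 11 sterol-step genes had a median log2 difference of -0.07, with 4 above 0 and 7 below. Their unadjusted p-values ran from 0.296 to 0.928, and all 11 intervals stayed between -1 and 1. Sqle, the squalene epoxidase that adds the oxygen of the sterol, had 62.8, 67.6 and 60.7 CPM in PS_high, against 65.4, 74.6 and 71.7 CPM in control. The groups overlapped, at a log2 fold change of -0.15 ± 0.13 (SE; edgeR unadjusted p = 0.296).

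Msmo1, the methyl sterol oxidase that helps strip methyl groups from the sterol ring, was the highest of this group in FPKM. It had 63.1, 65.2 and 66.6 CPM in PS_high, against 64.4, 73.1 and 71.3 CPM in control, and the control range held the 2 highest libraries. The log2 fold change was -0.10 ± 0.13 (SE; edgeR unadjusted p = 0.459). Ebp, the sterol isomerase, was the lowest of the group. It had 6.64, 9.74 and 9.29 CPM in PS_high, against 7.65, 8.31 and 9.33 CPM in control, with overlapping groups and a log2 fold change of 0.02 ± 0.22 (SE; edgeR unadjusted p = 0.928). The other 8 genes of these steps, from Fdft1 (squalene synthase) to Dhcr7 (the last reductase of one branch), had log2 fold changes between -0.20 and 0.07.

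The regulators had a median log2 difference of -0.11, with 1 of 6 tested genes above 0. Without PS_high 1 the median was 0.11, with 4 of 6 above 0. All 6 had their lowest value in PS_high 1. Among the 35 genes, 17 (48.6%) were lowest there, against 5011 of all tested genes (24.7%). In control 3, 0 of the 35 were lowest. Srebf2, the factor that drives cholesterol synthesis, had 84.9, 144 and 128 CPM in PS_high, against 105, 120 and 126 CPM in control. PS_high 2 and 3 lay above all control libraries and PS_high 1 below them, so that the log2 fold change was 0.02 ± 0.21 (SE; edgeR unadjusted p = 0.914).

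Insig1, an inhibitor of SCAP and itself a target of SREBP, had 44.8, 58.9 and 69.6 CPM in PS_high, against 60.8, 66.3 and 79.0 CPM in control. The groups overlapped, at -0.25 ± 0.20 (SE; edgeR unadjusted p = 0.245). Insig2, its relative, had 29.6, 34.4 and 35.3 CPM in PS_high, against 35.5, 37.9 and 36.3 CPM in control. The groups were separated by a narrow margin, the log2 fold change was -0.14 ± 0.15 (SE; edgeR unadjusted p = 0.358), and in FPKM they overlapped, with 8.69, 13.5 and 11.5 FPKM in PS_high against 12.6, 12.7 and 11.8 FPKM in control. Without PS_high 1 the log2 fold change was -0.06, and the CPM, rescaled for that fit, overlapped. On the scaling used above, the remaining PS_high libraries still lay below every control library. With all libraries, the groups also overlapped on the scaling of DESeq2. Their separation in CPM thus depended on the scaling and is not shown to rest on PS_high 1. Nr1h3, which encodes LXR alpha, was lowest of the regulators and below the level for a test. It had 0.13, 0.418 and 0.522 FPKM in PS_high, against 0.53, 0.534 and 0.353 FPKM in control, with its lowest value again in PS_high 1.

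Scap was not singled out by level or test and is named after its values were seen. It had 30.5, 60.1 and 58.9 CPM in PS_high, against 49.5, 52.9 and 55.4 CPM in control. PS_high 1 was the lowest of the 6 and the other PS_high libraries were the highest. Scap and Srebf2 were therefore higher in both remaining PS_high libraries than in every control library: without PS_high 1 the log2 fold changes were 0.18 ± 0.13 for Scap (SE; edgeR unadjusted p = 0.210) and 0.22 ± 0.14 for Srebf2 (SE; edgeR unadjusted p = 0.168). Neither passed the test. With fewer libraries to order, such a separation is easier to reach, and its share over all tested genes was not counted. The same holds for Abcg1 and Scd2 below.

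**Figure D3:**
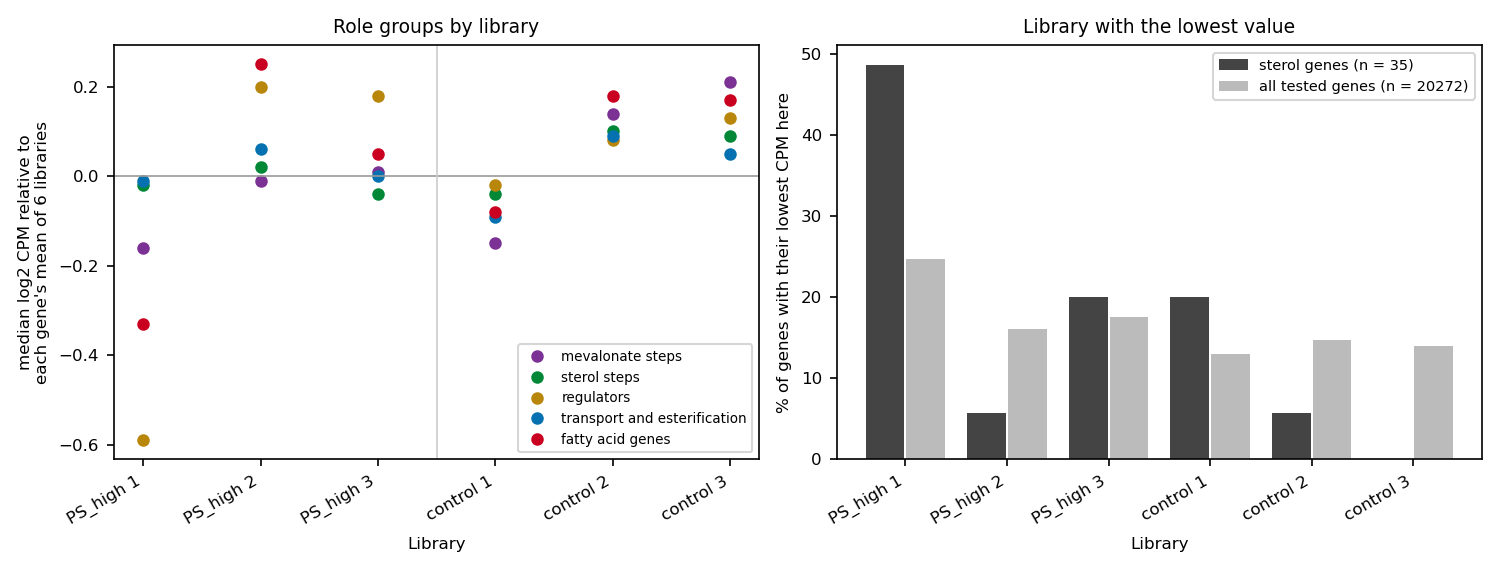
Left, for each library the median over a role group of log2 CPM (plus 0.5) minus each gene's mean over the 6 libraries; regulators and fatty acid genes drop in PS_high 1 to -0.59 and -0.33. Right, percentage of genes whose lowest CPM of the 6 libraries lies in that library, for the 35 tested sterol genes and for all 20272 tested genes.

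As the plot of role groups by library shows, the median of the regulators was -0.59 in PS_high 1 and between -0.02 and 0.20 in the other 5 libraries. For the sterol steps the median was -0.02 in PS_high 1, within the range of the others. Markers of some cell types also shifted in PS_high 1. The 6 microglia markers summed to 36.6 FPKM in PS_high 1 against 44.9 to 54.8 FPKM in the other libraries, the 8 oligodendrocyte markers to 266 FPKM against 313 to 364 FPKM, and the 4 oligodendrocyte precursor markers to 14.1 FPKM against 15.1 to 22.5 FPKM. On the scale of the plot, the medians of these 3 lists in PS_high 1 were -0.37, -0.21 and -0.28, each the lowest of the 6 libraries. Single genes were split. In CPM, Cx3cr1 and P2ry12 of microglia and Mbp, Mobp and Cldn11 of oligodendrocytes were not lowest in PS_high 1. Cldn11 was highest there, at 74.1 CPM. Among the precursor markers, Olig1 alone was lowest there, and Pdgfra, Cspg4 and Olig2 were not. The 7 astrocyte markers summed to 456 FPKM in PS_high 1 against 534 to 645 FPKM in the other libraries, but this lower sum lay in Slc1a2, a glutamate transporter, at 262 FPKM against 341 to 439 FPKM, and the list's median was -0.08. The 5 excitatory neuron markers were mixed: their median was 0.77 in PS_high 1 and between -0.50 and 0.22 in the other libraries, their sum was 277 FPKM against 244 to 321 FPKM, and Slc17a7, a vesicular glutamate transporter, was lowest there at 398 CPM against 601 to 820 CPM. The 5 endothelial and 6 GABAergic neuron markers had medians of -0.03 and 0.04 in PS_high 1, each within the range of the other libraries. None of these markers was at 0 in any library. None of these markers' part in the values of the sterol genes was tested.

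The 5 transport and esterification genes had a median log2 difference of 0.03, with 3 above 0 and 2 below. The sign of this median turned with limma on FPKM, where it was -0.07. Abca1, which loads cholesterol onto apolipoproteins, had 99.8, 106 and 121 CPM in PS_high, against 86.3, 105 and 90.1 CPM in control. PS_high 2 and 3 were the 2 highest libraries, the groups overlapped, and the log2 fold change was 0.22 ± 0.15 (SE; edgeR unadjusted p = 0.182). Abcg1, a partner exporter that is also an LXR target, had 87.3, 90.8 and 102 CPM in PS_high, against 76.8, 73.4 and 88.8 CPM in control. Its log2 fold change was 0.23 ± 0.14 (SE; edgeR unadjusted p = 0.149), and without PS_high 1 it was 0.28 ± 0.14 (SE; edgeR unadjusted p = 0.097), with both PS_high libraries above all control libraries.

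Abcg4, a neuronal relative of Abcg1, lay on the other side. It had 14.7, 22.1 and 21.8 CPM in PS_high, against 21.8, 26.9 and 25.9 CPM in control. The highest PS_high library lay just above the lowest control library, and the log2 fold change was -0.35 ± 0.21 (SE; 95% interval -0.84 to 0.15; edgeR unadjusted p = 0.143). Soat1, which esterifies cholesterol for storage, and Stard4, which carries it between membranes, differed little: their log2 fold changes were 0.03 ± 0.13 and -0.06 ± 0.13 (SE), with intervals of -0.27 to 0.32 and -0.35 to 0.24.

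The 6 fatty acid genes had a median log2 difference of -0.13, with 1 above 0 and 5 below, and unadjusted p-values from 0.498 to 0.762. Without PS_high 1 the median was 0.07, with 4 of 6 above 0. Scd2 (chromosome 19, 44293674 to 44306864 as the table gives it, build not given in the sources used here) encodes an enzyme that introduces the double bond of oleate and palmitoleate. It had 177, 1250 and 1250 CPM in PS_high, against 1120, 1220 and 1090 CPM in control. PS_high 1 reached 0.162 times the lowest of the other libraries, and the other 2 PS_high libraries were above all control libraries. The log2 fold change was -0.36 ± 0.60 with all libraries (SE; 95% interval -1.77 to 1.05; edgeR unadjusted p = 0.569). Without PS_high 1 it was 0.13 ± 0.13 (SE; edgeR unadjusted p = 0.331). The low value rests on 8266 estimated counts in PS_high 1, against 53591 to 62408 in the others, so counting error is not its limit.

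Scd2 alone weighed on the whole set. The 36 genes took 0.201% of all gene counts in PS_high 1, against 0.298% to 0.362% in the other libraries. Leaving out Scd2, they took 0.184% there, against 0.188% to 0.236% elsewhere. Fasn, the fatty acid synthase, had 82.2, 150 and 139 CPM in PS_high, against 111, 142 and 139 CPM in control. PS_high 1 was again lowest, with a log2 fold change of -0.08 ± 0.24 (SE; edgeR unadjusted p = 0.762).

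Not every gene of this group followed. Fads1, a desaturase of polyunsaturated fatty acids, had 156, 163 and 159 CPM in PS_high, against 144, 154 and 161 CPM in control, and has the smallest standard error of the set at a log2 fold change of 0.06 ± 0.12 (edgeR unadjusted p = 0.645). Its neighbour Fads2, which acts earlier in the same chain, varied within both groups, with 57.4, 82.1 and 38.1 CPM in PS_high and 23.5, 93.6 and 83.9 CPM in control. Both were named after their values were seen. Acaca, which makes malonyl-CoA, had overlapping groups, at a log2 fold change of -0.10 ± 0.14 (SE; edgeR unadjusted p = 0.510).

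Between libraries of 1 group, the sterol genes had a lower median spread than all tested genes. The median coefficient of variation of their CPM was 17.4% in PS_high and 8.71% in control, whereas over all tested genes it was 22% in PS_high and 17.5% in control. Without PS_high 1 it was 6.55% for the sterol genes in PS_high, against 14% over all tested genes. This is a description and was not tested. The sterol genes were not matched to other genes of like expression level, and all tested genes include those near the 0.5 FPKM minimum. The lower spread is therefore not shown to be particular to the sterol genes.

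Further genes of the same pathways were read from a list of 47, of which 45 were in the table and 43 were tested. None passed the adjusted threshold or had an unadjusted p under 0.05; 19 lay above 0 and 24 below, with a median of -0.01. In further synthesis Acat1, a thiolase, had a log2 fold change of 0.12 ± 0.22 (SE; edgeR unadjusted p = 0.609). In SREBP processing the smallest p-values were those of Mbtps2, the protease that makes the second cut in SREBP, at 0.50 ± 0.26 (edgeR unadjusted p = 0.1), and Trib1, at -0.45 ± 0.27 (edgeR unadjusted p = 0.142). Mbtps2 had 76.0, 38.6 and 50.8 CPM in PS_high, against 39.2, 32.6 and 45.3 CPM in control, so PS_high 1, where Scap and Srebf2 were lowest, was its highest library. In uptake and movement the first were Gramd1b, at 0.34 ± 0.29 (edgeR unadjusted p = 0.280), and Npc2, which hands cholesterol out of lysosomes, at -0.18 ± 0.17 (edgeR unadjusted p = 0.318). Npc2 and Erlin1 were the 2 of the 43 whose PS_high libraries all lay below the control libraries, an order that 760 of all 20272 tested genes (3.75%) had.

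Among efflux carriers and oxysterol enzymes, the smallest p-values were those of Lcat, at -0.33 ± 0.24 (SE; edgeR unadjusted p = 0.207), and Cyp7b1, at 0.17 ± 0.18 (edgeR unadjusted p = 0.360). This group had its lowest median in PS_high 1, at -0.42, against 0.01 to 0.21 in the other libraries. Among fatty acid genes they were Scd3, at 0.70 ± 0.38 (edgeR unadjusted p = 0.109), and Me1, which supplies NADPH, at 0.29 ± 0.24 (edgeR unadjusted p = 0.257). Scd1, Scd2 and Scd3 are closely related genes side by side, and reads that they share could have been divided between them in the authors' estimates. Oligodendrocyte and myelin markers, whose cells hold much of the brain's cholesterol, lay below 0 in 7 of 8 genes with a median of -0.11. Astrocyte markers went the other way, with 5 of 7 above 0, 2 below and a median of 0.13. All 6 meningeal fibroblast markers lay above 0 with a median of 0.51. Of those 6, Slc13a4 and Ptgds had every PS_high library above every control library, and Slc13a4 had an unadjusted p of 0.0239 in edgeR. Over all tested genes, 678 (3.34%) had that order and 554 (2.73%) had an unadjusted p under 0.05 in edgeR. The 5 choroid plexus markers all lay above 0 with a median of 1.05, and the 5 red cell genes all lay below 0 with a median of -0.47.

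Single isoforms showed what the sums hide. The 36 genes had 267 isoforms in the table, 232 annotated and 35 assembled, and 120 were tested. None passed an adjusted p under 0.05, against 3 of 69330 isoforms in all (0.00433%). At an unadjusted p under 0.05 there were 6 of the 120 (5%), against 2480 of all tested (3.58%). DESeq2 called 3 of the 120 (2.5%) at an adjusted p under 0.05, against 978 of all tested (1.41%). The isoform with the most counts was the same in all 6 libraries for 16 of the 36 genes and changed between libraries for 20. The same count was not made over all genes, so it is not known whether these numbers are unusual.

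**Figure D4:**
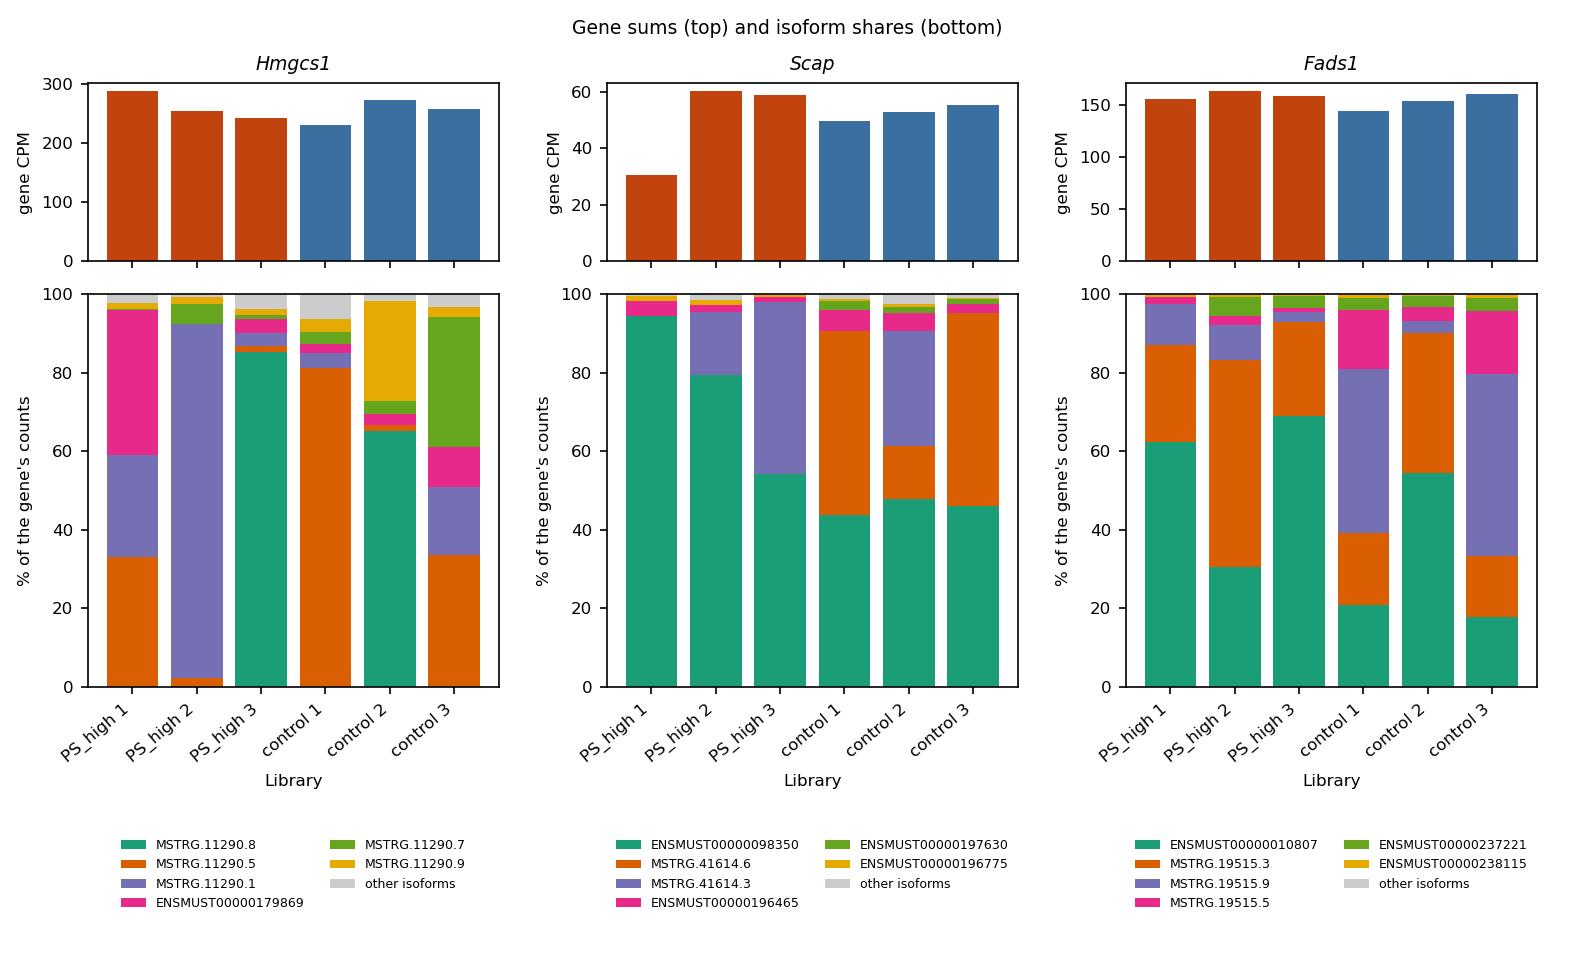
For Hmgcs1, Scap and Fads1, the gene's TMM-scaled CPM in each library (top; PS_high orange, control blue) and the percentage of its estimated counts given to its 6 most counted isoforms and to all others (bottom). The sums of Hmgcs1 and Fads1 are level while the isoform that holds most counts changes from library to library.

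Hmgcs1 shows this most plainly. Its sum was even across libraries, yet 4 different isoforms led. The assembled isoform MSTRG.11290.8 took 0%, 0% and 85.4% of its counts in PS_high, against 0%, 65.2% and 0% in control. The annotated coding isoform ENSMUST00000179869 had 4950, 0 and 444 counts in PS_high, against 262, 363 and 1463 counts in control. These isoforms overlap along the gene, so the division of reads between them is an estimate.

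Scap held the isoform with the smallest p. MSTRG.41614.6, an assembled isoform (chromosome 9, 110333636 to 110378776), had 0 counts in all 3 PS_high libraries, against 1138, 360 and 1497 counts in control. With 3 counts over the PS_high group as the floor, its estimated counts were at least 908-fold lower in PS_high. The edgeR unadjusted p was 0.000852 and the adjusted p 0.471. Reads shared by overlapping isoforms are divided by an estimate, so a count of 0 need not mean that the isoform was absent. DESeq2 gave it an adjusted p of 9.51e-16. The annotated coding isoform ENSMUST00000098350 had 1346, 2042 and 1595 counts in PS_high, against 1068, 1272 and 1397 counts in control, which overlap. A further assembled isoform, MSTRG.41614.3, was at 0 in PS_high 1 and in control 1 and 3 and had up to 1291 counts elsewhere.

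The next was a short retained-intron transcript of Fasn, ENSMUST00000206637 (chromosome 11, 120814495 to 120815455), with 71, 48 and 35 counts in PS_high, against 18, 17 and 18 counts in control. Every PS_high library was above every control library, at a log2 fold change of 1.66 ± 0.33 (SE; edgeR unadjusted p = 0.00328, adjusted p = 0.941). DESeq2 gave an adjusted p of 0.00278. It is a small part of the gene, whose coding isoform ENSMUST00000055655 had 3655, 6259 and 6831 counts in PS_high, against 5237, 6986 and 7447 counts in control.

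The assembled Fads1 isoform MSTRG.19515.5 was the one with the third smallest p. It had 130, 168 and 77 counts in PS_high, against 1063, 275 and 1407 counts in control, at a log2 fold change of -2.70 ± 0.71 (SE; edgeR unadjusted p = 0.0110, adjusted p = 1). DESeq2 gave an adjusted p of 0.00758. The remaining 3 isoforms with an unadjusted p under 0.05 were retained-intron transcripts of Msmo1 and Soat1 and the assembled Hmgcs1 isoform MSTRG.11290.9. All 3 had lower fitted means in PS_high, at log2 fold changes of -0.96, -1.06 and -2.75 and an adjusted p of 1 each.

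The 3 isoforms with most counts were the coding isoforms of Scd2, Scd1 and Fasn. That of Scd2 (ENSMUST00000026221) had 8245, 53563 and 62267 counts in PS_high, against 51642, 61160 and 55293 counts in control, and held at least 92.4% of the gene's counts in every library. The low value of PS_high 1 is thus that of the coding isoform. That of Scd1 (ENSMUST00000041331) had 4583, 7410 and 5059 counts in PS_high, against 7036, 8225 and 9292 counts in control. In PS_high 3 a further 2764 counts of Scd1 went to an assembled isoform, MSTRG.20073.1, that was at 0 in the other 5 libraries.

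Circular RNAs, formed when a splice donor joins an upstream acceptor, gave a readout the choice of genes did not use. The table listed 27 circRNA records from 10 of the 36 host genes, and 19 of the 27 had reads in 1 library alone. Back-splice reads over all 27 came to 19, 14 and 18 in PS_high, against 28, 17 and 31 in control, out of 15658 to 19957 per library. Only 4 records had reads in at least 3 libraries and were tested. None passed, at an adjusted p or at an unadjusted p under 0.05, against 1 of 3275 circRNAs (0.0305%) at an adjusted p and 162 (4.95%) unadjusted.

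Acaca, with 11 of the records, had most of these reads. Its main circle spans 2 exons and is listed as 2 records whose starts are 1 base apart (chromosome 11, 84193079 or 84193080 to 84195687). The first record had 12, 0 and 0 reads in PS_high, against 0, 4 and 0 reads in control, and the second had 0, 6 and 10 reads in PS_high, against 15, 0 and 12 reads in control. Joined, they had 12, 6 and 10 reads in PS_high, against 15, 4 and 12 reads in control, and the groups overlapped. The second record alone gave a log2 fold change of -0.54 (edgeR unadjusted p = 0.529, adjusted p = 0.976), over libraries where each record is at 0 when the other has reads. The tested record with the smallest p was a 3-exon circle of Srebf2, with 0, 0 and 1 reads in PS_high, against 3, 1 and 0 reads in control (edgeR unadjusted p = 0.311). At this depth a difference in these circles was not detectable.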

How the data were processed

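RNA of 6 prefrontal cortex samples was read from the submitters' tables. Per the file headers, the authors deposited FPKM and an estimated count for each assembled isoform, and for circRNAs a back-splice read count with its signal SRPBM, which rescales that count by 1 total per library. HISAT2, StringTie and TopHat appear in the submitters' processing notes; their versions, and the genome build, were not given in the sources used here. Isoforms with 0 counts carry 0.0001 FPKM in the deposited table. Isoforms of class codes =, j, c, o and e were summed per symbol, which left 18% to 23% of estimated counts out of the gene sums. Gene, isoform and circRNA counts were tested with edgeR 4.0.16 (R 4.3.3; quasi-likelihood, two-sided, Benjamini-Hochberg over all tested features, threshold 0.05). Genes and isoforms used TMM scaling and a mean of at least 0.5 FPKM; circRNAs used reads in at least 3 libraries and the total behind SRPBM. Alternatives used DESeq2 1.42.0 and limma 3.58.1 on log2 of FPKM plus 0.1 or 1. The edgeR fits of genes, isoforms and circRNAs, the DESeq2 fit of genes and limma with 0.1 added were tested on simulated data. The DESeq2 fit of isoforms and limma with 1 added were not. In the simulation, circRNAs used total back-splice reads as library size, and limma used scaled counts in place of FPKM. Values per library are given for members with an unadjusted p under 0.05, with groups that do not overlap, at the top or bottom of their role group in FPKM, or fixed by name (Hmgcs1, Sqle, Srebf2, Insig1, Abca1), and for isoforms and circRNAs with the smallest p or most counts. The genes and the lists were chosen with earlier results of these data known. Values of some further synthesis genes are not reported here.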

Additional observations from a re-analysis of the deposited data

How the results depend on the processing

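None of the 35 sterol genes passed the adjusted threshold under any of the 17 alternatives of the gene test, where the smallest adjusted p was 0.996. The sign of the difference was kept in all 17 by 9 of the 35 genes. Of all tested genes 5 passed in edgeR, and 554 had an unadjusted p below 0.05. That count was 47 with DESeq2 (670 unadjusted), 2 with no filter (971), and 0 with limma on log2(FPKM + 0.1) (585), with limma on log2(FPKM + 1) (609), with annotated isoforms alone (694) and with the isoform of highest mean count alone (577). Leaving out 1 library gave 0 to 17 genes, the 17 without PS_high 1. Of the 35, 1 gene, Cyp51, had an unadjusted p under 0.05 with annotated isoforms alone (edgeR unadjusted p = 0.0484). Of the 35, genes whose groups did not overlap numbered 1 with either limma fit, against 3. They numbered 4 to 9 with 1 library left out, where fewer libraries have to be ordered. The share over all tested genes was not counted for these fits. The median log2 difference of the transport genes was -0.07 with either limma fit and 0.11 with annotated isoforms. Taking each gene's most counted isoform alone, it was -0.48 for the mevalonate genes and 0.00 for the sterol steps. With 1 library left out it ran from -0.13 to 0.00 for the sterol steps and from -0.19 to 0.01 for all 35. DESeq2 called 3 member isoforms, those of Scap, Fasn and Fads1 given above, among 978 isoforms in all. The cause of these shifts was not tested. The labels do not say whether replicate numbers mark pairs. Correlations of same-numbered deviations were low, at 0.21, 0.11 and 0.06, although each library correlated best with its own number, a hint from the data and not the design. With the replicate number as a block 0 genes passed (650 unadjusted). With 3 libraries a group, the intervals above bound what could be seen.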
